A study of Homo sapiens with 4 samples.

Results

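The genes described here encode the machinery that starts transcription by RNA polymerase II: the polymerase itself, the general factors TFIIA, TFIIB, TFIIE, TFIIF and TFIIH, the TBP-associated factors (TAFs) of TFIID, and Mediator. They were chosen by symbol alone, as every gene whose name begins with TAF, MED or POLR2 and a subunit number or letter, or with GTF2 and the letter A, B, E, F or H. The platform annotation named 72 such genes on 114 probes, of 18348 genes named on the array. Of these, 64 had a probe above background on at least 2 of the 4 arrays and were tested, among 11030 genes tested in all, and 8 were not. TAF5L, TAF1 and MED13 were tested because of 1 group alone, the one where they were brighter, so their p-values are given as the fit wrote them and support nothing by themselves. The symbols also take in 7 tested genes that are part of neither TFIID nor Mediator: the SL1 subunits TAF1A, TAF1B, TAF1C and TAF1D of the polymerase I system, the SAGA subunits TAF5L and TAF6L, and the RNA-binding protein TAF15.

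RNA came from the established human embryonic stem cell line H9, collected 24 h after gamma radiation (24 h, n = 2) and before it (0 h, n = 2). Both groups were grown in the same serum-replacement medium with basic FGF and were hybridised to Illumina bead arrays. The labels give no radiation dose, although the title speaks of a low one, and do not say whether replicates were separate cultures, so p-values reflect no more than the spread among these arrays, part of which can be technical. No unirradiated sample taken at 24 h was analysed here, so radiation and a day in culture cannot be told apart.

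The 24 h arrays correlated with each other at r = 0.987 (Pearson, across genes, which are not independent replicates), the 0 h arrays at 0.991, and arrays of different groups at 0.971 to 0.979. The ratio of the brightest percentile of raw signals to the undetected probes' median was 69.7 and 60.4 at 24 h, against 82.0 and 83.1 at 0 h. The 7 measured pluripotency markers of a list of 10 were detected on all arrays: POU5F1, NANOG, SOX2, LIN28A, DNMT3B, PODXL and SALL4. Of the 7, 5 lay below 0, against 50.6% of all genes, and 0 passed the test. Their log2 changes ran from -0.72 ± 0.11 SE for DNMT3B (adjusted p = 0.051, limma) to 0.31 ± 0.13 SE for NANOG. The summed log2 level of the 7 was 15.2 and 15.3 at 24 h, against 15.4 and 15.4 at 0 h. Of a list of 14 genes used as fibroblast markers 8 were measured: COL1A1, COL1A2, THY1, PDGFRB, ACTA2, TAGLN, S100A4 and VIM. All 8 lay above 0, as did 5450 of 11030 genes, and 5 passed the test, against 1.35% of all genes called higher. The summed log2 level of the 8 was 14.4 and 14.4 at 24 h, against 13.6 and 13.6 at 0 h. COL3A1, FAP, PDGFRA, DCN, LUM and POSTN were not above background on 2 arrays. The part of these differences in the values below was not tested, and in bulk RNA fewer cells of a type and less RNA per cell cannot be told apart.

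TFIID, made of the TATA-binding protein and its TAFs, recognises the core promoter. TFIIB and TFIIF then bring in the polymerase, TFIIE and TFIIH open the DNA and start the enzyme on its way, and Mediator carries signals from enhancer-bound factors to this assembly. Embryonic stem cells are known to hold Mediator at the enhancers of their pluripotency genes.

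Among the 64 tested genes 1 passed the test, TAF5L, which was lower at 24 h, and 0 passed in the higher direction (limma, Benjamini-Hochberg adjusted p under 0.05 over all genes tested). TAF5L was detected at 0 h alone, and among the 55 genes detected on all 4 arrays 0 passed, with 13 lower and 3 higher at an unadjusted p under 0.05. Over all genes the same test called 251, or 2.28% (1.35% higher and 0.925% lower). At an unadjusted p under 0.05 there were 16 lower and 5 higher among the 64, or 25% and 7.81%, against 15.3% lower and 15% higher over all genes. Genes below 0 with such a p were 4 of 11 in TFIID (36.4%) and 3 of 9 among polymerase II's own subunits (33.3%). In Mediator they were 4 of 23 (17.4%) and in the general factors 1 of 10 (10%). They were TAF1, TAF2, TAF4, TAF5, POLR2B, POLR2C, POLR2J, MED14, MED23, MED31, MED13L and GTF2H1. The rest, TAF1A, TAF1B, TAF5L and TAF15, are part of neither TFIID nor Mediator. TAF1, TAF5L and MED13L were not detected on all 4 arrays. No test set these shares against each other.

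Both 24 h arrays lay below both 0 h arrays for 30 of the 64 genes and above them for 8, where the same held for 31.3% and 30.3% of all genes. The change was below 0 for 42 of 64 genes, against 50.6% of all genes. The 4 SL1 subunits, TAF5L, TAF6L and TAF15 all lay below 0, with both 24 h arrays below both 0 h arrays. They are part of neither TFIID nor Mediator and are counted in the 30 and the 42. The median log2 change was -0.085, against -0.0050 over all genes. In size 33 of the 64 changes were under 0.2, against 4632 of 11030 over all genes. Among the 55 genes detected on all 4 arrays, 36 lay below 0 and the median was -0.082. With arrays scaled to their 75th percentile in place of quantile normalization, the median of the set was -0.18 and that of all genes -0.036.

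**Figure D1:**
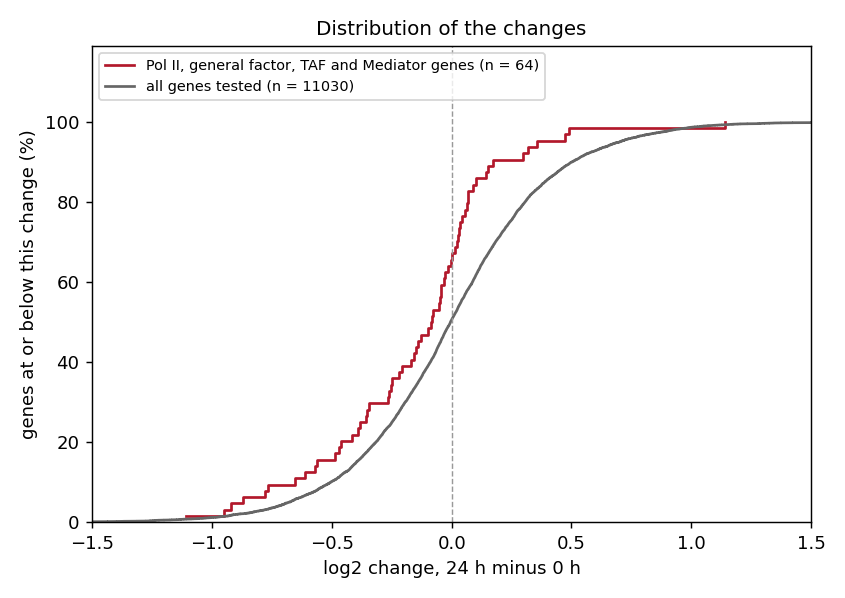
Cumulative share of genes (vertical axis, percent) at or below each log2 change, 24 h minus 0 h (horizontal axis). The curves are for the 64 tested genes chosen by symbol and for all 11030 genes tested. The 64 include the SL1 and SAGA subunits and TAF15, all below 0. The curve of the 64 lies to the left of the other over most of the range, with 65.6% of them below 0 against 50.6% of all genes; a few genes of the larger set lie beyond the axis.

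None of the 11 tested TFIID genes passed, and 4 of them lay below 0 with an unadjusted p under 0.05. Of these 4, TAF1 was tested because of its 0 h arrays alone, so its p supports nothing by itself. TAF1, the large scaffold TAF with a kinase and bromodomains, had log2 signals of 5.44 and 4.92 at 24 h, against 6.05 and 6.15 at 0 h. It was not well above background on either 24 h array, and its bound was at least 1.53-fold lower (adjusted p = 0.0725, limma). Of its probes this was the one that was detected, so the difference rests on a single dim probe; with no background correction the log2 change was -0.32.

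TAF2, which binds the initiator element of core promoters, had 8.54 and 8.56 at 24 h, against 9.18 and 9.23 at 0 h. The replicates of each group differed far less than the groups, and the log2 change was -0.65 ± 0.10 SE, 1.57-fold lower, yet it missed the threshold (adjusted p = 0.0521, limma). TAF5, a WD40-repeat subunit at the centre of the TFIID lobes, had 8.55 and 8.59 at 24 h, against 9.07 and 9.04 at 0 h (log2 change -0.49 ± 0.10 SE, adjusted p = 0.0689, limma). TAF4, which pairs with TAF12 through a histone fold, had 9.90 and 9.75 at 24 h, against 10.23 and 10.19 at 0 h (-0.38 ± 0.11 SE, adjusted p = 0.111, limma). For TAF1, TAF2, TAF4 and TAF5 both 24 h arrays lay below both 0 h arrays, as they did for 31.3% of all genes. TAF2 passed under 6 of 13 alternative settings, TAF5 under 5, TAF4 under 2 and TAF1 under 1 of the 12 that kept it.

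The smaller histone-fold and linker subunits stood near 0. TAF12, the partner of TAF4, had 9.21 and 9.22 at 24 h, against 9.23 and 9.15 at 0 h, a log2 change of 0.021 ± 0.10 SE. TAF7, which regulates TAF1, had 10.22 and 10.08 at 24 h, against 10.23 and 10.13 at 0 h, a change of -0.028 ± 0.11 SE. In both the ranges of the groups overlapped, as they did for TAF6, TAF8, TAF10 and TAF13, whose changes ran from -0.046 to 0.065. None of these 6 has a settled sign: each turned under at least 1 setting. TAF8 had log2 signals of 5.38 to 5.77 and TAF13 of 5.54 to 5.98. The lowest detected signals were 5.43 to 5.51, so a fall of these 2 genes could hardly show. A second kept probe of TAF6 stood at 0.20. TAF1L, a retrogene copy of TAF1 whose probe may not separate it from TAF1, stood at -0.27 ± 0.10 SE. Over the 11 tested TFIID genes 8 lay below 0, against 50.6% of all genes. Their median was -0.046, in a range of -0.27 to -0.025 over the alternatives.

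Shown are the promoters of TAF1, TAF4 and TAF5, of TAF7 and TAF12, which stood near 0, and of MED31 and TAF5L. They were picked after their values were seen, and no test set them against each other. TAF2 had no promoter entry, and TAF10, the highest TFIID gene, is not shown. Each is the 150 bases before the annotated start, from RefSeq on GRCh38.p14. Capitals mark matches, on either strand, to TATAAA (the TATA box), GGGCGG (GC box), CCAAT (bound by NF-Y), CCGGAA (core of ETS-family sites) and TTTGAA (cell cycle homology region); adjoining matches run together.
TAF1 (chrX:71366207-71366356, + strand): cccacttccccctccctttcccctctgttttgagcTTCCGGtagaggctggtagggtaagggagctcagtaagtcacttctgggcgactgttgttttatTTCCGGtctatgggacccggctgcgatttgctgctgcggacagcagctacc
TAF4 (chr20:62065882-62066031, - strand): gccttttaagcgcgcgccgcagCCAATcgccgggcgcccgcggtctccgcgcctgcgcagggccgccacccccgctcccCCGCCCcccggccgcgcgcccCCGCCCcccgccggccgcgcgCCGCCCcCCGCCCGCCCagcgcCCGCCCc
TAF5 (chr10:103367826-103367975, + strand): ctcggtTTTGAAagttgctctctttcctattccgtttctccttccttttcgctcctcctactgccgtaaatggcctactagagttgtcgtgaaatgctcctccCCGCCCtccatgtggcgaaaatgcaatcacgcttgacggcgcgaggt
TAF7 (chr5:141320785-141320934, - strand): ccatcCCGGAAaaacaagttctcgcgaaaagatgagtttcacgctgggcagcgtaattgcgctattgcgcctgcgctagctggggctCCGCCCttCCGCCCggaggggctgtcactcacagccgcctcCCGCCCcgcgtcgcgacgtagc
TAF12 (chr1:28643068-28643217, - strand): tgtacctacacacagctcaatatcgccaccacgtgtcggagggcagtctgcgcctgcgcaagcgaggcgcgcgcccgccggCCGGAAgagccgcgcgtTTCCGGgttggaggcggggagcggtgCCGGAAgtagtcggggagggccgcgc
MED31 (chr17:6651606-6651755, - strand): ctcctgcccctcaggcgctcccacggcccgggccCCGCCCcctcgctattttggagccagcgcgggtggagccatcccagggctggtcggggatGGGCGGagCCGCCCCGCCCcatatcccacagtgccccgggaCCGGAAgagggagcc
TAF5L (chr1:229626123-229626272, - strand): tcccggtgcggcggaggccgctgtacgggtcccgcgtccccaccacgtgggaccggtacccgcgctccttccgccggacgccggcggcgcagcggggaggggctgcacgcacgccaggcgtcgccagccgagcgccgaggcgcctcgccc

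TAF1 holds 2 copies of the ETS core in this window and TAF12 holds 3, so a gene below 0 and a gene near 0 share it. TAF4 and MED31 are rich in GC boxes, TAF5 holds the lone TTTGAA of those shown, and TAF5L matches none of the 5 motifs here, although the longer window described next holds a CCAAT. Over the longer window of 300 bases (250 before and 50 after the start), CCGGAA was found in 27 of the 48 tested genes with an entry, 56.2%, against 29.3% of 8884 tested genes with an entry and 17.2% of all 35116 promoters. GGGCGG was found in 60.4% of the 48, against 70.4% of tested genes and 45% of all promoters. CCAAT stood at 31.2%, against 37.2% and 34.6%. TATAAA stood at 8.33%, against 5.54% and 11.5%. TTTGAA stood at 12.5%, against 9.47% and 15.2%. No searched motif contains another, although the ends of some can overlap, and a match is a run of letters, not a measured site.

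TAF5L, a WD40 protein that takes the place of TAF5 in the SAGA coactivator, was the gene that passed. Its log2 signal was 5.04 and 4.92 at 24 h, against 5.85 and 6.01 at 0 h. Neither 24 h array was well above background, and the 0 h arrays alone brought TAF5L into the test, so its p supports nothing by itself. Its bound was at least 1.36-fold lower (fitted log2 change -0.95 ± 0.12 SE, adjusted p = 0.0477, limma). The call was close to the threshold: it held under 4 of 12 alternatives, with adjusted p of 0.0239 to 0.238, and was lost with any 1 array left out. With no background correction the log2 change was -0.33, less than the bound of 1.36-fold. TAF6L, the SAGA counterpart of TAF6, had 10.02 and 10.30 at 24 h, against 10.38 and 10.44 at 0 h, and did not pass (adjusted p = 0.296, limma).

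The 4 SL1 subunits, which bring RNA polymerase I to ribosomal RNA genes, all lay below 0, against 50.6% of all genes. Their median was -0.40. TAF1B had 8.67 and 8.61 at 24 h, against 9.08 and 9.03 at 0 h (log2 change -0.41 ± 0.10 SE, adjusted p = 0.0855, limma). TAF1A had 7.40 and 6.60 at 24 h, against 7.77 and 7.76 at 0 h; the 24 h arrays disagree by more than the groups' nearest values do, and a second, dimmer probe stood at -0.66 beside the -0.77 of the first. TAF1D stood at -0.39 ± 0.17 SE and TAF1C at -0.16 ± 0.10 SE, although a second probe of TAF1C stood at 0.19. None of the 4 passed, and the mean of its probes put TAF1C at 0.019. TAF1A and TAF1B were called under 2 alternatives each.

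TAF15, an RNA-binding protein, had 11.67 and 11.78 at 24 h, against 12.23 and 12.36 at 0 h. That is 1.48-fold lower (log2 change -0.57 ± 0.11 SE, adjusted p = 0.0653, limma), with groups wide apart on a bright probe. TAF15 passed under 5 of 13 alternatives.

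**Figure D2:**
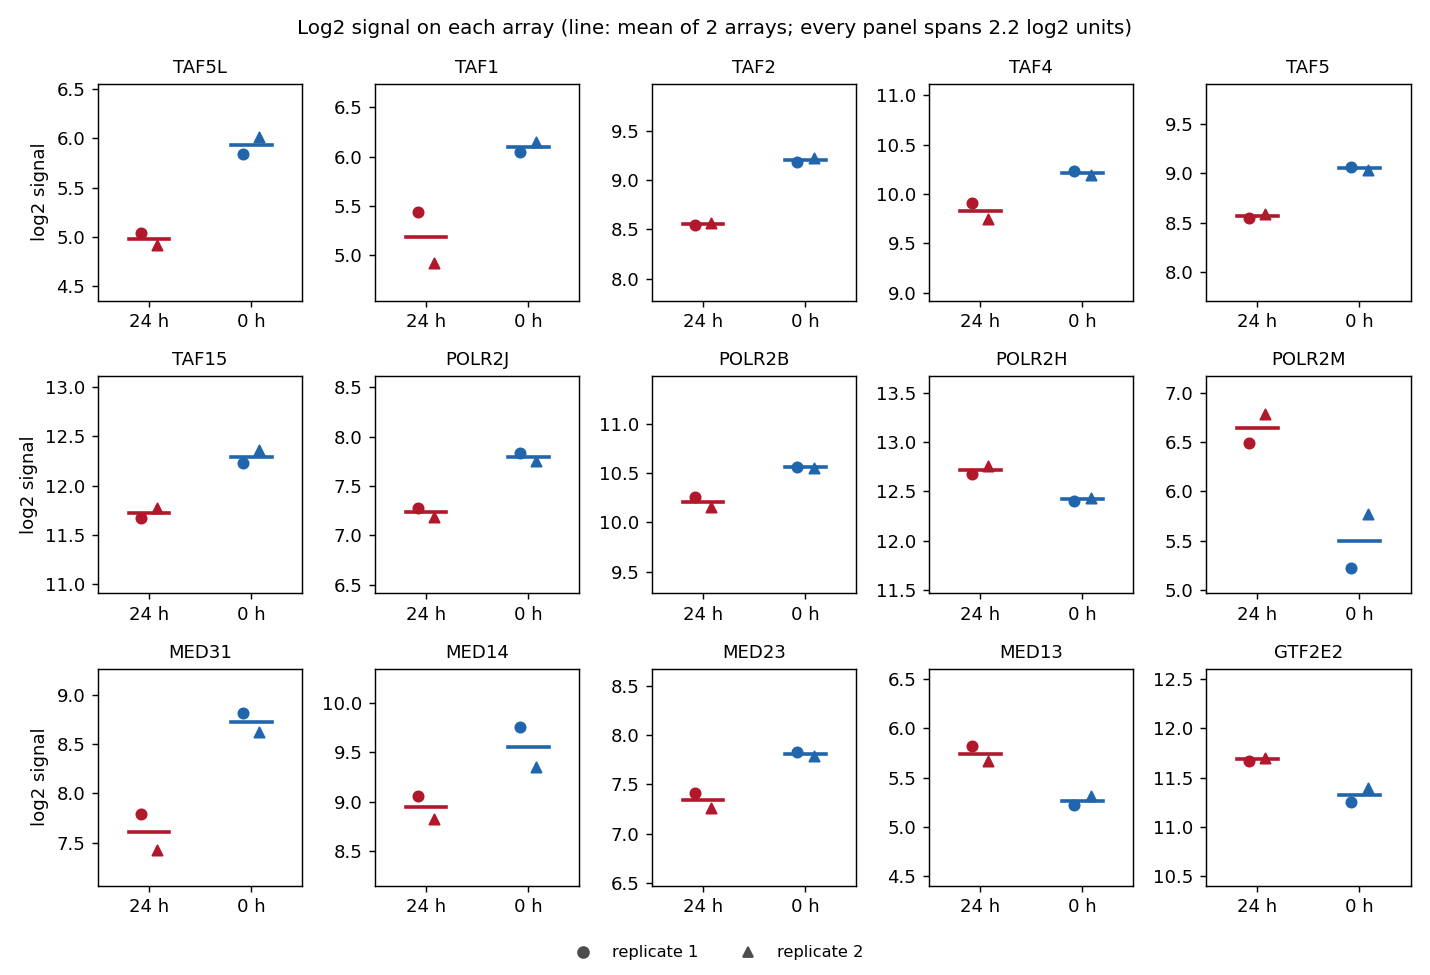
Log2 signal after background correction and quantile normalization (vertical axis) on each 24 h and 0 h array for 15 genes; circles are replicate 1, triangles replicate 2, lines the mean of 2 arrays, and all panels span the same height. In these 15 chosen genes the arrays of the 2 groups do not overlap, while in 26 of the 64 tested genes they do. Over all genes both 24 h arrays lay below both 0 h arrays for 31.3% and above them for 30.3%. TAF5L and TAF1 were at background on both 24 h arrays, MED13 on both 0 h arrays and POLR2M on 1 at 0 h.

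No polymerase subunit passed. POLR2J, the RPB11 subunit that pairs with RPB3 in assembly, had 7.28 and 7.19 at 24 h, against 7.83 and 7.76 at 0 h (log2 change -0.56 ± 0.11 SE, adjusted p = 0.063, limma). Its near-identical copies POLR2J2 and POLR2J3 stood at 0.067 ± 0.14 SE and 0.036 ± 0.11 SE, with overlapping arrays and a sign that turned under other settings, and probes of such copies may read each other's transcripts. POLR2B, the second largest subunit, had 10.25 and 10.16 at 24 h, against 10.56 and 10.55 at 0 h (-0.36 ± 0.11 SE, adjusted p = 0.11, limma). POLR2C, the RPB3 partner of POLR2J, had 10.32 and 10.44 at 24 h, against 10.69 and 10.77 at 0 h (-0.35 ± 0.11 SE), while its second probe, also detected on all arrays, stood at -0.11 and the mean of both at -0.23. For these 3, and for POLR2A and POLR2G, both 24 h arrays lay below both 0 h arrays, as they did for 31.3% of all genes. None of them passed.

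POLR2A, the catalytic subunit with the carboxy-terminal repeats, had 11.14 and 11.03 at 24 h, against 11.23 and 11.25 at 0 h, a change of -0.15 ± 0.11 SE. POLR2G and POLR2D, which form the stalk, stood at -0.082 ± 0.10 SE and -0.14 ± 0.12 SE, and POLR2I at 0.015 ± 0.10 SE. Over the 9 tested subunits of this enzyme alone the median was -0.14, and -0.28 with scaling to the 75th percentile, and 0 of 9 passed.

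Of the subunits shared with polymerases I and III, POLR2H had 12.68 and 12.76 at 24 h, against 12.41 and 12.44 at 0 h, above on both arrays (log2 change 0.30 ± 0.10 SE, adjusted p = 0.149, limma). POLR2F stood at -0.052 ± 0.11 SE. POLR2L had 8.04 and 8.49 at 24 h, against 8.62 and 8.63 at 0 h, with 1 of the 24 h arrays close to the 0 h pair. So the 3 shared subunits measured showed no common direction. POLR2E and POLR2K are unnamed in the annotation used here and were not analysed.

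POLR2M encodes Gdown1, a protein that binds the polymerase and makes it depend on Mediator. It had 6.49 and 6.79 at 24 h, against 5.22 and 5.77 at 0 h, and was detected on both 24 h arrays and on 1 at 0 h. The fitted log2 change was 1.14 ± 0.23 SE, which rests in part on that undetected 0 h array, and it did not pass (adjusted p = 0.0656, limma). With no background correction it was 0.42, and its other 3 probes were not kept, with log2 changes of -0.44 to 0.0996.

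The general factors TFIIA, TFIIB, TFIIE, TFIIF and TFIIH had 10 tested genes, 5 on either side of 0 and a median of 0.013. GTF2E2, the smaller subunit of TFIIE, had 11.67 and 11.70 at 24 h, against 11.26 and 11.40 at 0 h, 1.28-fold higher (log2 change 0.36 ± 0.11 SE, adjusted p = 0.117, limma). Its partner GTF2E1 had 10.16 and 9.998 at 24 h, against 10.13 and 10.03 at 0 h, and stood at -0.0021 ± 0.12 SE. GTF2A2 of TFIIA stood at -0.078 ± 0.10 SE, GTF2B, the factor that positions the polymerase, at -0.0495 ± 0.15 SE, and GTF2F2 of TFIIF at 0.032 ± 0.13 SE. The last 2 and GTF2E1 turned sign under some settings.

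In TFIIH, the helicase and kinase factor that also serves nucleotide excision repair, GTF2H1 had 6.55 and 6.40 at 24 h, against 7.08 and 6.79 at 0 h (log2 change -0.46 ± 0.15 SE, adjusted p = 0.127, limma). GTF2H2 had 5.88 and 4.92 at 24 h, against 6.06 and 6.31 at 0 h, was detected on 1 of the 24 h arrays, and has near-identical genomic copies that its probe may read. GTF2H3, GTF2H4 and GTF2H5 stood at 0.087, 0.15 and 0.027, with SE of 0.10 to 0.13. None of the 5 passed, and the 3 above 0 lay below it with scaling to the 75th percentile.

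Mediator had 23 tested genes, of which 14 lay below 0, against 50.6% of all genes, 9 above, and 0 passed. Its median was -0.088. MED31, a small conserved subunit of the middle module, had the lowest change of the set: 7.79 and 7.43 at 24 h, against 8.81 and 8.63 at 0 h, 2.16-fold lower (log2 change -1.11 ± 0.17 SE, adjusted p = 0.0516, limma). Both arrays of each group were far above background, and MED31 passed under 6 of 13 alternatives. A second MED31 probe, detected on 1 array, stood at 0.11 and was not kept.

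MED14, the scaffold that joins head, middle and tail, had 9.06 and 8.83 at 24 h, against 9.76 and 9.35 at 0 h (log2 change -0.61 ± 0.18 SE, adjusted p = 0.112, limma). Its second kept probe, dimmer and detected on all arrays, stood at 0.32, so the probes of MED14 disagree in sign and their mean gave -0.15. MED23, a tail subunit that receives signals from ETS-type activators, had 7.41 and 7.26 at 24 h, against 7.83 and 7.78 at 0 h (-0.47 ± 0.11 SE, adjusted p = 0.0813, limma), and its second probe stood at -0.29. The other tail genes lay on both sides: MED15 had 6.10 and 6.83 at 24 h, against 6.02 and 5.93 at 0 h, with 1 high array, MED28 stood at 0.15 ± 0.12 SE and MED30 at -0.21 ± 0.11 SE.

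In the middle module 6 of 8 tested genes changed by less than 0.2 in size, and in the head module 2 of 4. Over all genes 4632 of 11030 did. MED1, the contact for nuclear receptors, had 8.88 and 8.56 at 24 h, against 8.95 and 8.93 at 0 h (-0.22 ± 0.15 SE), with a second probe at 0.13. MED7 and MED26, of which MED26 links to elongation factors, stood at 0.17 ± 0.13 SE and 0.055 ± 0.12 SE, and MED9, MED10, MED19 and MED21 lay between -0.13 and -0.015. In the head module MED11 had 7.55 and 7.54 at 24 h, against 7.31 and 7.15 at 0 h (0.32 ± 0.11 SE, adjusted p = 0.15, limma), MED22 stood at -0.26 ± 0.11 SE, and MED8 and MED17 overlapped between the groups. Over the 4 tested head genes the median was 0.0013, and it ran from -0.18 to 0.29 as single arrays were left out.

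The kinase module, which blocks the contact of Mediator with the polymerase, had 3 tested genes, none of which passed. MED13 had 5.82 and 5.67 at 24 h, against 5.23 and 5.31 at 0 h; neither 0 h array detected it, and its bound was at least 1.24-fold higher (adjusted p = 0.0824, limma). With no background correction the log2 change was 0.16, and a second probe, detected on no array, stood at -0.041. Its paralog MED13L had 5.18 and 5.60 at 24 h, against 6.68 and 5.84 at 0 h, was detected on 1 of the 24 h arrays and stood at -0.87 ± 0.33 SE (adjusted p = 0.162, limma). That value ran from -1.29 to -0.45 as single arrays were left out, with the lower one without the second 0 h array and the other without the first, and was -0.31 with no background correction. MED12 had 6.77 and 6.54 at 24 h, against 7.07 and 6.75 at 0 h, with overlapping arrays. The module's kinase CDK8, no member by name, stood at -0.62 ± 0.18 SE (adjusted p = 0.105, limma).

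**Figure D3:**
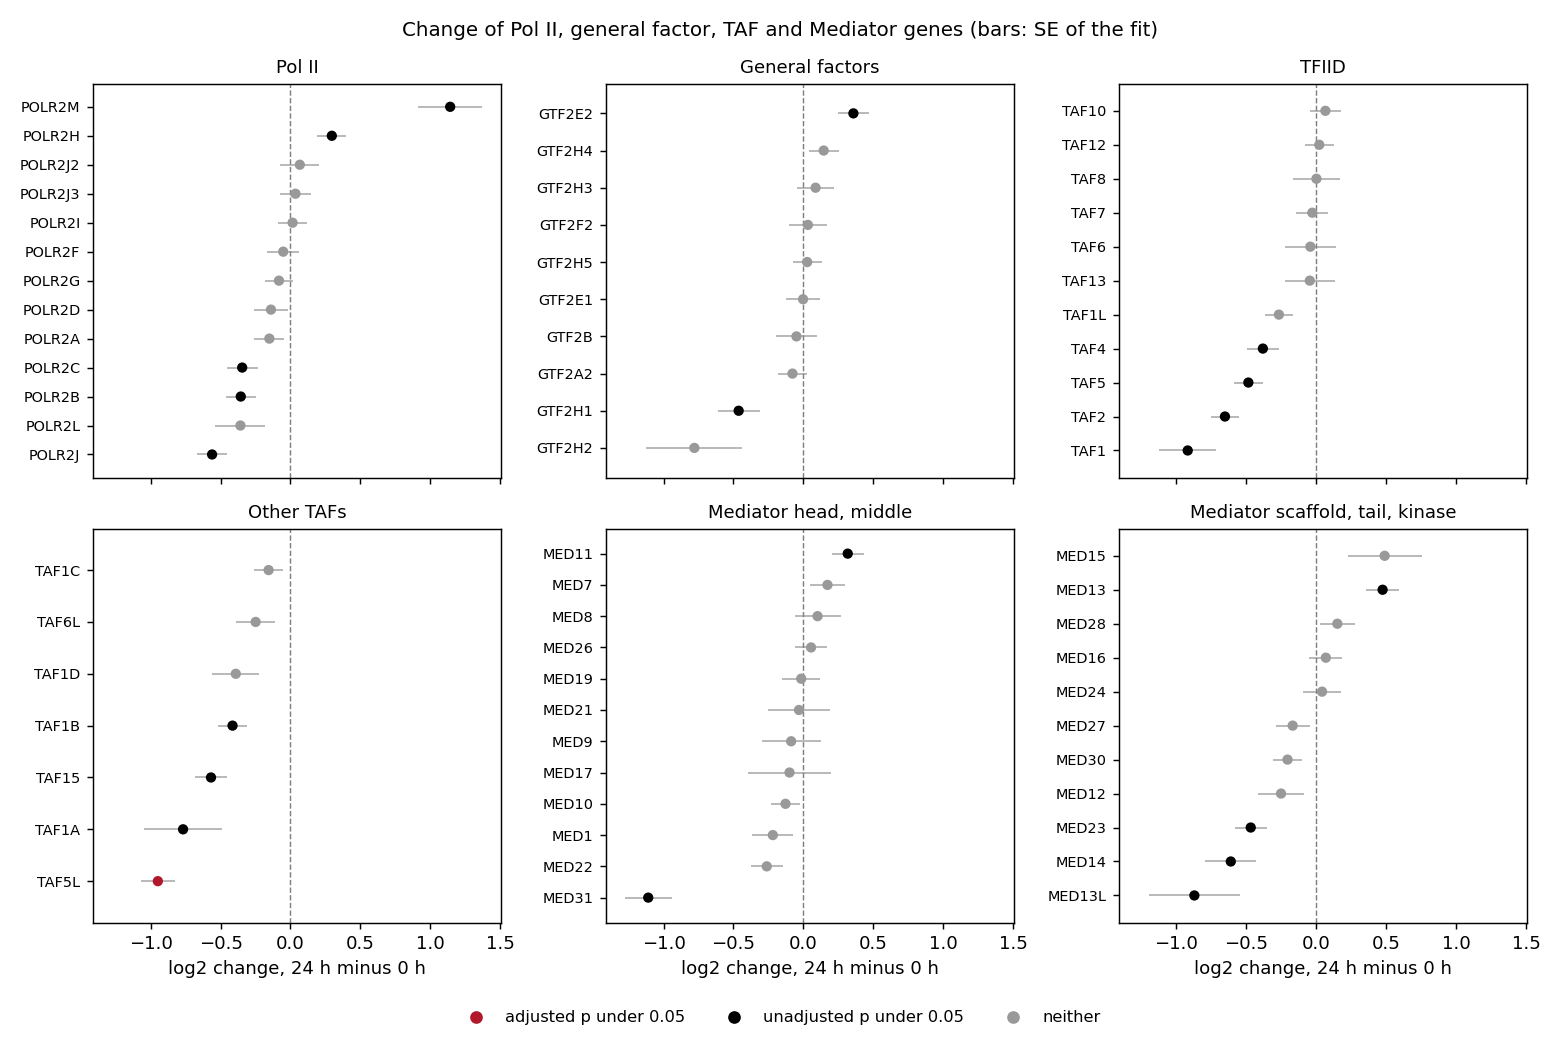
Log2 change, 24 h minus 0 h (horizontal axis), of each of the 64 tested genes by complex; bars are the SE of the limma fit, red marks adjusted p under 0.05, black an unadjusted p under 0.05 and grey neither. TAF5L is the red point at -0.95, MED31 lies lowest at -1.11 and POLR2M highest at 1.14.

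The 8 untested genes were GTF2A1, GTF2A1L, GTF2H2C_2, MED12L, POLR2J4, TAF3, TAF4B and TAF7L. TAF4B, a TAF4 paralog of germ cells, was detected on 1 array (lowest detection p 0.0039), and POLR2J4, with 8 probes, on at most 1 array a probe. The other 6 were detected on 0 arrays, with lowest detection p of 0.0714 for TAF3 to 0.599 for TAF7L, which does not show that the transcripts were absent. A further 15 genes listed for these complexes are unnamed in the annotation used here and were not analysed. They are TAF9, TAF9B, TAF11, POLR2E, POLR2K, GTF2F1, MED4, MED6, MED18, MED20, MED25, MED29 and the GTF2H2 copies GTF2H2B, GTF2H2C and GTF2H2D. Of the 16 genes with more than 1 kept probe, 9 had probes that disagreed in sign: MED1, MED8, MED14, MED16, MED17, MED27, TAF1C, TAF6 and TAF13. Apart from MED14 their first probe stood between -0.22 and 0.10.

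Genes that work with this machinery under other names were read from the same fit. Of 10 partners such as TBP, CDK7 and the TFIIH helicases, 0 passed, against 2.28% of all genes, and 8 lay below 0, against 50.6%. TBP, the DNA-binding core of TFIID, was highest at 0.18 ± 0.14 SE and CDK8 lowest. Of 21 pausing and elongation genes 0 passed, with the elongation factor ELL3 at 0.64 ± 0.13 SE (adjusted p = 0.0665) and CDK13, a kinase of the polymerase tail, at -0.69 ± 0.17 SE (adjusted p = 0.0803, limma). Of 10 assembly factors and tail phosphatases 0 passed, with the phosphatase CTDSPL at 0.46 ± 0.12 SE and RPAP2, which helps bring the polymerase into the nucleus, at -0.62 ± 0.11 SE (adjusted p = 0.0567, limma).

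Polymerase III subunits had 1 of 9 pass, where 2.28% of all genes did (0.925% lower). POLR3B, the second largest subunit, had 8.73 and 8.63 at 24 h, against 9.73 and 9.63 at 0 h, and fell 2.00-fold (log2 change -1.002 ± 0.11 SE, adjusted p = 0.0456, limma), a call lost under 6 of 13 alternatives. POLR3GL stood at 0.58 ± 0.12 SE, while its paralog POLR3G, enriched in embryonic stem cells, stood at -0.067 ± 0.10 SE. Of 5 polymerase I subunits 0 passed, from POLR1A at -0.41 ± 0.15 SE to POLR1H at 0.028 ± 0.10 SE, and of 12 SAGA partners of TAF5L 0 passed, from USP22 at -0.50 ± 0.21 SE to SUPT3H at 0.77 ± 0.20 SE (adjusted p = 0.0942, limma).

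How many genes passed depended on the processing. Of the 64 genes 15 were called with no background correction and 15 with a variance prior that has a trend with the level and is robust to outliers, 6 with scaling to the 75th percentile and 3 with the authors' log2 values, against 19.9%, 22.9%, 6.54% and 3.52% of all genes. As shares of the 64 these counts are 23.4%, 23.4%, 9.38% and 4.69%. MED31 and TAF2 were among the called genes in each of these 4. The requirement of detection on all 4 arrays gave 6 of 55, against 14.2% of all genes, the detection p under 0.01 gave 8 of 59, against 12.7%, and the mean of a gene's probes gave 1 of 64, against 3.05%. In all, 19 of the 64 were called under at least 1 alternative, or 29.7%, against 25.3% of all genes. For 38 of the 64 the sign of the change held under each alternative that kept the gene, which was all 13 for 32 of them and at least 11 for the rest; the other 26 had changes of at most 0.17 in size.

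**Figure D4:**
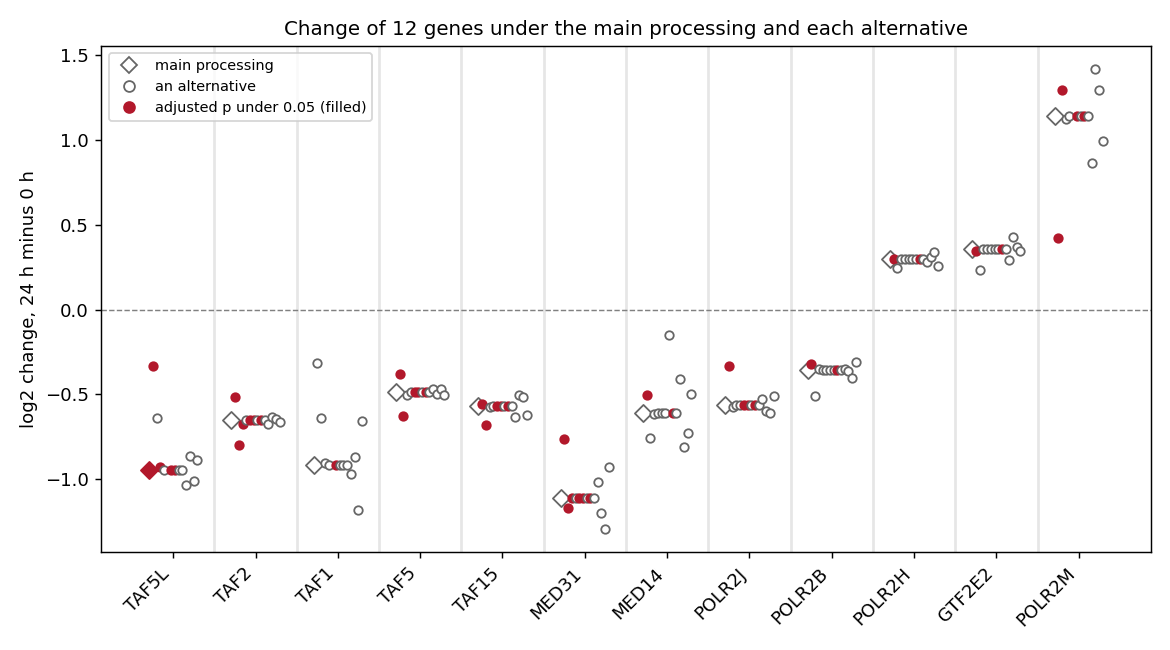
Log2 change, 24 h minus 0 h (vertical axis), of 12 genes under the main processing (diamonds) and each alternative (circles); filled symbols passed adjusted p of 0.05. All 12 keep their sign, and the sizes of the dim genes TAF5L, TAF1 and POLR2M, and of MED14, spread most.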

How the data were processed

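Gene expression was measured on 4 bead arrays, 2 of H9 cells 24 h after gamma radiation and 2 before it. The deposited table gives, per the file headers, a mean bead intensity (linear scale) per probe and array, with its detection p-value, for 47217 probes. The authors' deposited table of log2 values was made with limma per the submitters' processing notes; its steps are not given in the sources used here, nor is the version; against the same arrays normalized here it had a correlation of at least 0.99998 across probes, with medians of 5.35 to 5.36, and was used as an alternative.

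Intensities were normalized with neqc of limma 3.58.1 (R 4.3.3), which subtracts background fitted from the detection p-values, adds an offset of 16, quantile normalizes and takes log2. Quantile normalization gives all arrays 1 distribution, so changes are relative to the other transcripts. Probes that reached a detection p under 0.05 on 2 or more arrays were kept (20361). The brightest kept probe stood for its gene, with symbols from the platform annotation. limma (lmFit, eBayes) was fitted over all 11030 genes, 24 h minus 0 h, with no covariate. With 2 arrays per group an exact permutation test could not go below p = 0.333 and was not used; the number of arrays limits the precision. Where neither array of a group detected a gene, the fold is a bound, set against the higher of the gene's own signal and the lowest detected one on each array. Such a bound holds for the main processing only. With no background correction TAF5L, TAF1 and MED13 changed by less than their bounds. On simulated data with 11030 genes, 40 of 100 genes changed by 1 log2 unit and 68 of 100 changed by 2 were called, with 3 false calls. The noise there used each gene's own SD, and few genes were changed, where 3345 had an unadjusted p under 0.05 here. The shares called need not hold for these data.

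The alternatives changed the background correction, scaling, source of values, filter, probe summary, variance prior, block and arrays used. Members, lists and complexes were chosen with earlier results of these data known. GTF2H2C_2 was put with TFIIH after the files were read. The rule named genes past the threshold, the 2 highest and 2 lowest of each complex and those with disagreeing probes; the other members were described after their values were seen. Promoter sequences are from RefSeq, and those shown were chosen after the values were seen.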

Additional observations from a re-analysis of the deposited data

How the results depend on the processing

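The number of calls depended on the processing. Over all genes limma called 251, and 2199 with no background correction, 721 with scaling to the 75th percentile, 388 with the authors' log2 table, 1370 with probes detected on all 4 arrays, 1240 with a detection p under 0.01, and 2522 with the trend and robust prior. It called 0 with no filter on dim probes, 0 with the replicate block and 0 without any single array, where 3456, 3828 and 1831 to 3341 genes had an unadjusted p under 0.05. Of the genes chosen by symbol 1 was called, TAF5L. Under the same alternatives 15, 6, 3, 6, 8 and 15 were called, and 0 with no filter and with the replicate block. The cause was not tested. Among the same-numbered replicates the deviations from the group means correlated at 0.15 over genes; 2 pairs do not show that the numbers pair the samples.

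The median of the set was -0.085, and -0.18 with 75th percentile scaling, -0.047 with the mean of a gene's probes, and -0.14 to -0.083 with single arrays left out. For polymerase II's own subunits it was -0.28 with 75th percentile scaling. For TFIID it was -0.025 with no background correction, -0.18 with 75th percentile scaling, -0.27 with the stricter detection p, which left fewer genes, and -0.27 to -0.074 with arrays left out. For the Mediator head it ran from -0.18 to 0.29 with arrays left out. For the tail it was -0.12 with 75th percentile scaling and -0.077 to 0.11 with arrays left out.

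Signs turned for 26 of the 64 genes, with changes of at most 0.17 in size, and for POLR1H. With 75th percentile scaling the log2 change was -0.060 for POLR2J2, -0.12 for POLR2J3, -0.11 for POLR2I, -0.094 for GTF2F2, -0.0042 for GTF2H4, -0.050 for GTF2H3, -0.095 for GTF2H5, -0.053 for TAF10, -0.13 for TAF12, 0.19 for TAF13, 0.082 for MED17, 0.21 for MED21, -0.050 for MED16, -0.12 for MED24 and -0.13 for POLR1H. With the mean of the probes it was 0.079 for TAF6, 0.019 for TAF1C, -0.012 for MED8, 0.041 for MED17 and 0.041 for MED27. With single arrays left out it ran from -0.035 to 0.17 for POLR2J2, -0.024 to 0.096 for POLR2J3, -0.013 to 0.043 for POLR2I, -0.12 to 0.017 for POLR2F, -0.21 to 0.11 for GTF2B, -0.083 to 0.079 for GTF2E1, -0.063 to 0.13 for GTF2F2, -0.028 to 0.20 for GTF2H3, -0.0070 to 0.061 for GTF2H5, -0.017 to 0.060 for TAF12, -0.20 to 0.20 for TAF8, -0.096 to 0.040 for TAF7, -0.21 to 0.13 for TAF6, -0.27 to 0.17 for TAF13, -0.066 to 0.27 for MED8, -0.52 to 0.32 for MED17, -0.022 to 0.13 for MED26, -0.15 to 0.12 for MED19, -0.33 to 0.27 for MED21, -0.30 to 0.13 for MED9, -0.023 to 0.16 for MED16, -0.077 to 0.16 for MED24 and -0.0051 to 0.062 for POLR1H. A lone array left in a group was assumed to vary like the other group. The dim range limits TAF5L, TAF1, TAF8, MED13, MED13L, MED17, MED21, GTF2H2 and POLR2M, for which some arrays were at background.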
